A study of Drosophila melanogaster with 6 samples.

Results

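The digestive enzyme genes of the *Drosophila* gut were examined in embryos lacking maternal *Raf* function and in WT embryos. They were the genes whose FlyBase symbols place them among the Jonah proteases (*Jon* followed by a digit), the trypsins (a Greek letter name followed by *Try*), the maltases (*Mal-A* and *Mal-B*), the amylases (*Amy-*) and the lysozymes (*Lys* followed by a capital letter). This rule found 46 of the 17714 genes in the count tables, namely 16 Jonah proteases, 11 trypsins, 10 maltases, 2 amylases and 7 lysozymes. In the annotation used here, BDGP6.54, 45 of the 46 are protein-coding and *LysC* is a pseudogene.

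These enzymes break down food in the lumen of the gut. Jonah proteases and trypsins are secreted serine proteases, amylases cut starch into short sugars, and maltases (alpha-glucosidases) release glucose from those sugars. Lysozymes cut the peptidoglycan of bacterial walls, and several fly lysozymes are made in the gut, where they digest bacteria taken in with food. In the embryo the midgut arises from anterior and posterior endoderm, which is specified at the ends of the early embryo by signalling from the receptor Torso through the kinase Raf. Enzyme genes of this kind can mark a gut that has begun to differentiate. The genes were chosen by symbol, and where each of them is expressed in the embryo was not tested.

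RNA was sequenced from 3 samples of *Raf926* embryos and 3 samples of WT embryos. The *Raf926* embryos, which the labels call *Raf926*-/- or KO, came from mothers with germline clones of this *Raf* loss-of-function allele, made by FLP/FRT recombination with a dominant female-sterile *ovo* mutation, and from fathers that carried the FM6 balancer. A functional paternal *Raf* could therefore reach some of the embryos. The WT embryos carried no mutation, and the study names Oregon R as its wild-type strain. The *Raf926* chromosome also carried *w* and an FRT site, so strain background and *Raf* genotype cannot be told apart. Every sample was a pool of whole embryos of mixed stages. The sample records give egg laying at 25 °C for 24 h, the methods of the study give a shorter and cooler collection, and the conflict was not settled here. The study describes the replicates as biological, and the labels do not say whether they came from separate cages. The tests measure the spread between these samples. In whole embryos, fewer cells of a type and less RNA per cell cannot be told apart.

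The samples held between 33275401 and 38120428 expected counts. An expected count is the number of reads assigned to a gene, with reads that match several genes divided between them. Counts below are normalized by edgeR's TMM factors to the mean library size, unless they are called expected counts or TPM (a scale of transcript abundance that also allows for gene length). *Raf* itself had 1202, 1399 and 1546 normalized counts in *Raf926* samples, against 2539, 2935 and 2184 in WT samples (log2 fold change −0.88, SE 0.15, adjusted p = 0.00156 from the quasi-likelihood test of edgeR, adjusted by the Benjamini-Hochberg method). The genotypes did not overlap for *Raf*, in the direction the labels imply.

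A gene was taken as above background in a genotype when it had over 3 expected counts in each of its 3 replicates. On this measure 43 of the 46 genes were above background in at least 1 genotype. They comprised 22 genes in *Raf926* embryos and 41 in WT embryos, with 20 above background in both genotypes, 2 in *Raf926* alone and 21 in WT alone. The 21 genes were 11 Jonah proteases, 8 trypsins and the lysozymes *LysC* and *LysS*. The 2 genes were *LysX* and *Mal-A7*. The remaining 3, *Jon66Cii*, *LysB* and *LysP*, were below this level in at least 1 replicate of each genotype. Counted by sample, 23, 43 and 26 genes passed 3 expected counts in replicates 1, 2 and 3 of *Raf926*, against 43, 42 and 44 in those of WT. Replicate 2 of *Raf926* thus had about as many enzyme genes above this level as the WT samples had. A stricter reading lowered the number for *Raf926* embryos more than for WT embryos. With at least 1 TPM in each replicate, 11 genes passed in *Raf926* and 37 in WT. A further level was the highest TPM of any of 13 adult male accessory gland genes, which embryos should not express. It was 1.86 TPM in *Raf926* and 0.58 TPM in WT, and 9 genes passed in *Raf926* and 37 in WT. The level of *Raf926* came from 4 expected counts of *Acp63F* in replicate 2. The numbers 9 and 37 thus do not share a threshold.

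The summed level of each family showed which families changed most. Jonah proteases together had 2.07, 34.8 and 2.80 TPM in *Raf926* samples, against 424, 282 and 1042 TPM in WT samples. Trypsins together had 2.81, 17 and 1.60 TPM in *Raf926* samples, against 119, 92.4 and 281 TPM in WT samples. In both protease families every *Raf926* sample lay below every WT sample. Maltases ran the other way, with 189, 151 and 146 TPM in *Raf926* samples, against 80.7, 64.8 and 119 TPM in WT samples. Most of the *Raf926* maltase sum was *Mal-A1* and *Mal-A5*, at means of 86.2 and 41.9 TPM, against 12.8 and 15.2 TPM in WT. The direction of the maltase sum rested on these genes, since the other maltases together had less TPM in *Raf926* samples than in WT samples. Amylases together had 4.58, 17.7 and 2.73 TPM in *Raf926* samples, against 30.2, 23.0 and 54.3 TPM in WT samples. Lysozymes together had 35.9, 58.2 and 61.4 TPM in *Raf926* samples, against 54.4, 31.5 and 115.2 TPM in WT samples. Much of the WT lysozyme sum was the short *LysC* pseudogene, which had 0, 14.1 and 0 TPM in *Raf926* samples, against 25.3, 16.1 and 58.7 TPM in WT samples, from few counts. Most of the *Raf926* lysozyme sum was *LysX*, at 32.0, 35.9 and 56.8 TPM. In expected counts the lysozymes summed to 351, 466 and 685 in *Raf926* samples, against 260, 130 and 513 in WT samples. The lysozyme sums overlapped between the genotypes on both scales, while the amylase sums did not overlap.

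**Figure D1:**
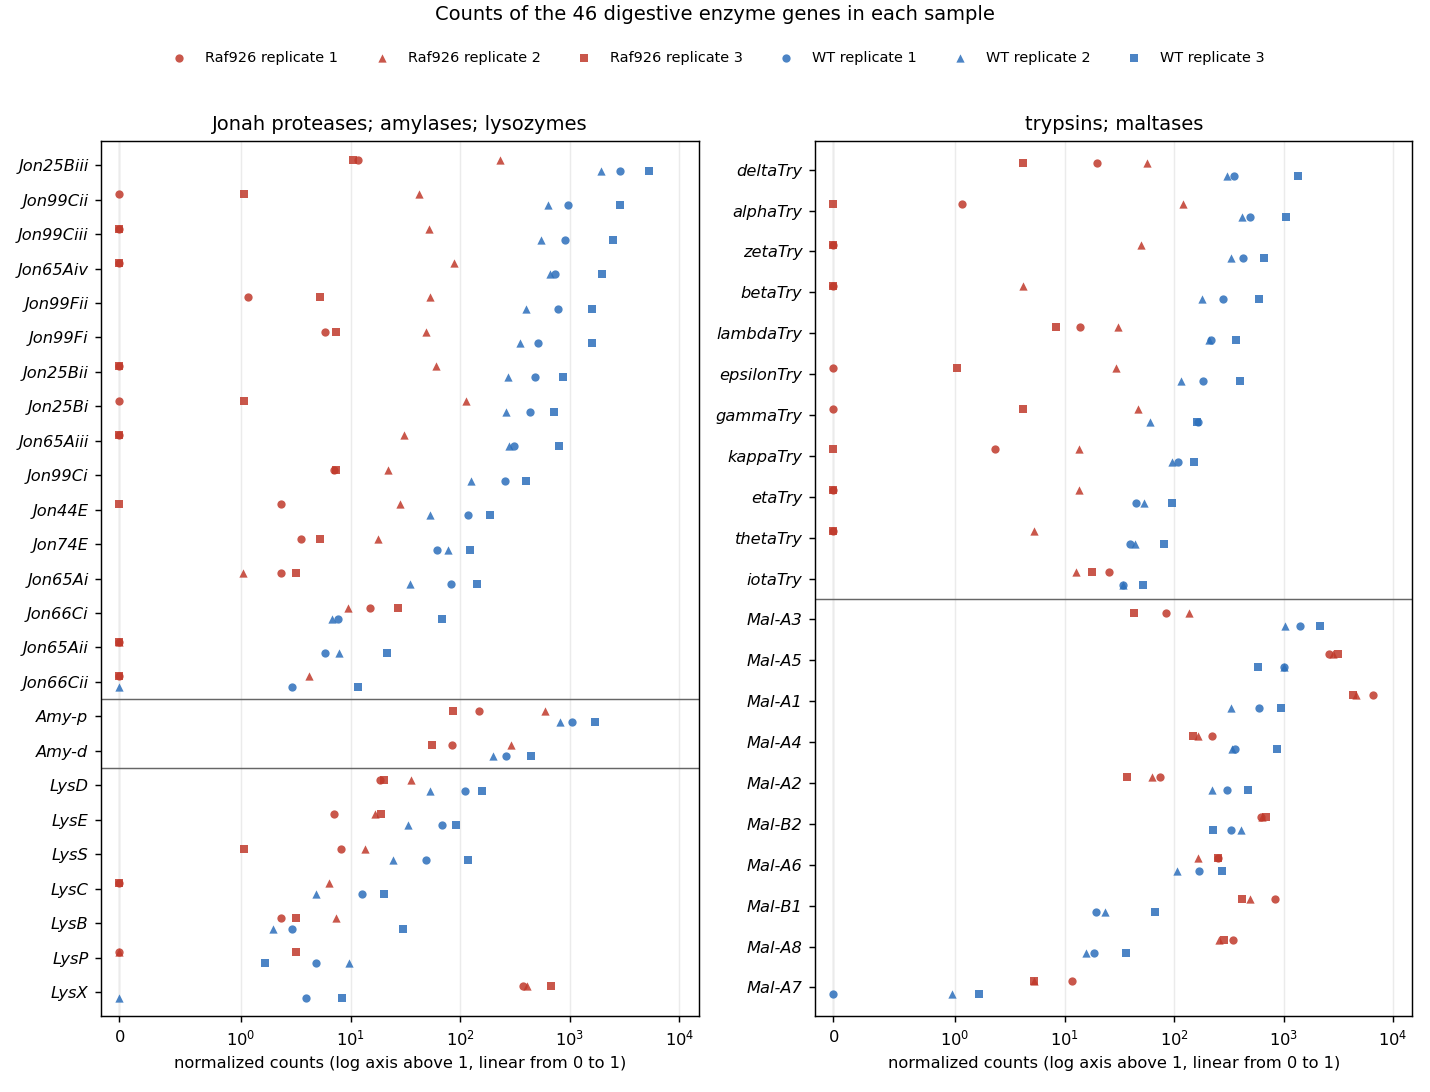
Normalized counts of the 46 digestive enzyme genes (horizontal axis, logarithmic above 1 and linear from 0 to 1), with 1 symbol per sample and *Raf926* in red above WT in blue on each line. Genes are sorted by mean WT count within each family. The *Raf926* triangles (replicate 2) lie to the right of the other red symbols for most proteases, and *LysX* and 6 maltases have all red symbols to the right of the blue ones.

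Of the 46 genes, 40 had a mean of at least 10 expected counts over the 6 samples and were tested. *Raf926* embryos had lower counts of 31 of them and higher counts of 6. A call needed more than a 1.5-fold difference and an adjusted p (edgeR's quasi-likelihood test) below 0.1. The 37 genes called were 92.5% of those tested, where 49.7% of all 11568 genes tested were called. The 31 lower genes were 77.5% of those tested, against 26.9% of all genes, and the 6 higher genes were 15%, against 22.7% of all genes. *Raf926* and WT samples were fully separated, with no overlap, in 37 of the 40 genes, and in 68.5% of all genes. The median log2 fold change was −3.69 over the 40 genes and −0.04 over all genes. These counts include 10 genes whose *Raf926* mean was under 10 expected counts and that therefore passed the minimum through WT alone. The other 21 of the 31 lower genes had a *Raf926* mean of 10 or more. For *Jon25Bi*, *Jon25Bii*, *Jon65Aiv*, *Jon99Cii*, *Jon99Ciii*, *alphaTry* and *zetaTry* that mean came from *Raf926* replicate 2. These genes were at or under 3 expected counts in the other *Raf926* samples. Replicate 2 also lifted *Jon99Ci*, *Jon99Fi*, *Jon99Fii* and *gammaTry* to that mean. They had between 0 and 7 expected counts in the other *Raf926* samples. *LysX*, among the higher genes, passed through *Raf926* alone. For any 1 gene taken alone, the smallest two-sided p that exact permutation of 3 against 3 samples allows is 0.1.

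**Figure D2:**
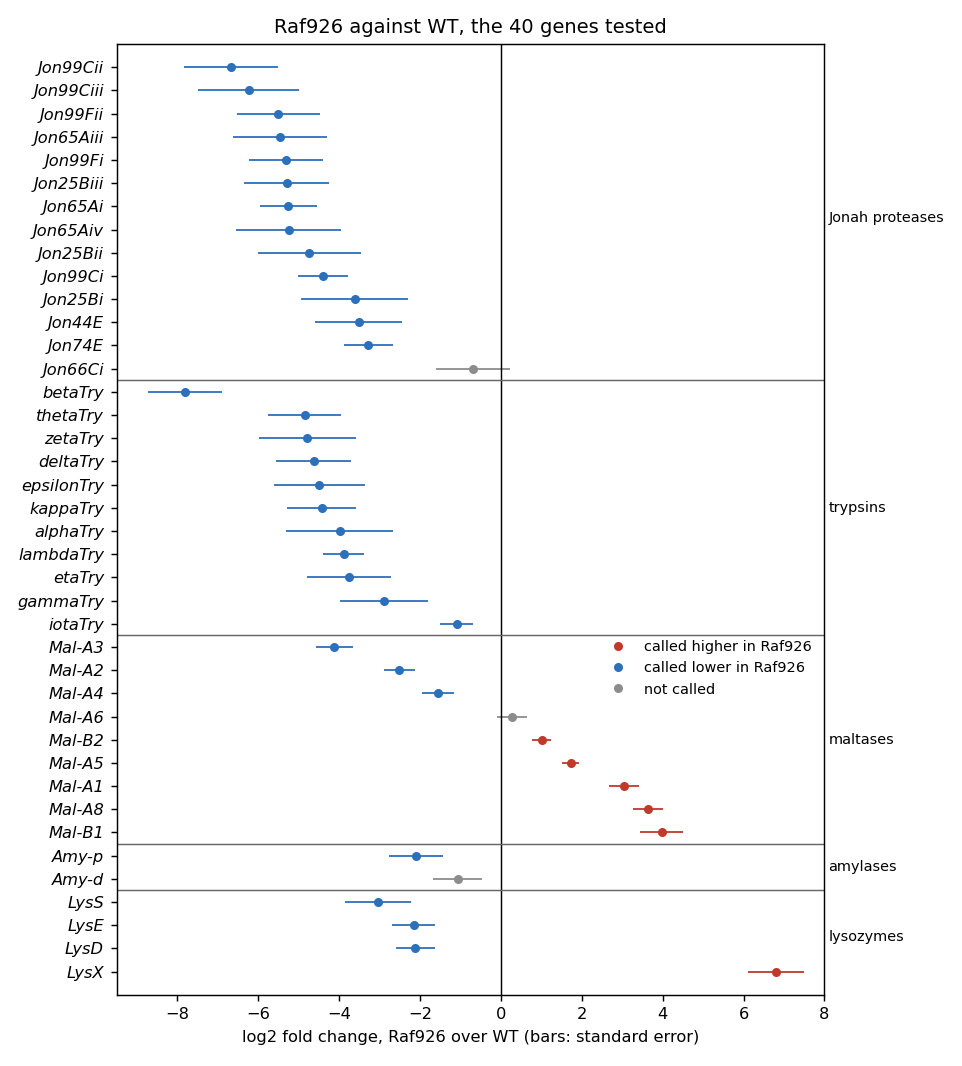
Log2 fold change of *Raf926* over WT for the 40 genes tested (horizontal axis), with bars of 1 standard error and colour for the call. Every called protease lies below 0, at −1.10 or lower, while the maltases spread from −4.11 to 3.98 and *LysX* stands at 6.80.

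Among the Jonah proteases, 13 of the 14 tested fell in *Raf926* embryos and none rose, beside 26.9% lower over all genes. *Jon25Biii*, a serine protease gene on chromosome arm 2L, was the most abundant of all 46 genes in WT by TPM, at 3.96 ± 5.98 TPM in *Raf926* and 191 ± 108 TPM in WT (SD, n = 3 each). It had 11.6, 231 and 10.5 normalized counts in *Raf926* samples, against 2878, 1916 and 5247 in WT samples (log2 fold change −5.30, SE 1.05, adjusted p = 0.00366, edgeR). The *Raf926* mean was 2.52% of the WT mean, and even the high *Raf926* replicate, number 2, was far below the lowest WT sample. Its neighbour *Jon25Bii* had 0, 59.8 and 0 counts in *Raf926* samples, against 484, 272 and 871 in WT samples (log2 fold change −4.74, SE 1.27, adjusted p = 0.0138). *Jon25Bi*, the third gene of this row, had 0, 112 and 1.05 counts in *Raf926* samples, against 432, 260.0 and 714 in WT samples (log2 fold change −3.62, SE 1.32, adjusted p = 0.0449). In both genes *Raf926* replicate 2 carried nearly all of the *Raf926* counts, and the genotypes did not overlap. The call of *Jon25Bi* was lost without WT replicate 1 (adjusted p = 0.107), without WT replicate 3 (adjusted p = 0.103) and in the DESeq2 Wald test (adjusted p = 0.118).

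The largest fitted decreases of the Jonah family were those of *Jon99Cii*, *Jon99Ciii* and *Jon99Fii*, among the 99C and 99F genes on 3R. The order changed without *Raf926* replicate 2, where *Jon65Aiv* (−13.15) lay below *Jon99Cii* (−11.11), in fits to counts at or near 0. *Jon99Cii* had 0, 42.0 and 1.05 counts in *Raf926* samples, against 971, 637 and 2900.3 in WT samples (log2 fold change −6.67, SE 1.16, adjusted p = 0.00198). *Jon99Ciii* had 0, 51.4 and 0 counts in *Raf926* samples, against 906, 543 and 2509 in WT samples (log2 fold change −6.23, SE 1.25, adjusted p = 0.00378). *Jon99Cii* and *Jon99Ciii*, 298 bp apart, were both nearly silent in *Raf926* replicates 1 and 3 and highest in WT replicate 3. *Jon99Fii* had 1.16, 53.5 and 5.26 counts in *Raf926* samples, against 781, 401 and 1588 in WT samples (log2 fold change −5.50). *Jon99Fi* had 5.82, 48.2 and 7.36 counts in *Raf926* samples, against 516, 351 and 1607 in WT samples (log2 fold change −5.31). *Jon99Ci* kept somewhat more of its level, with 6.98, 22.0 and 7.36 counts in *Raf926* samples, against 254, 125 and 398 in WT samples (log2 fold change −4.40). None of the 5 genes of 99C and 99F overlapped between the genotypes.

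The 65A genes on 3L fell to a similar degree. *Jon65Aiv* had 0, 87.1 and 0 counts in *Raf926* samples, against 728, 665 and 1971 in WT samples (log2 fold change −5.25, SE 1.3, adjusted p = 0.00976). *Jon65Aiii* had 0, 30.4 and 0 counts in *Raf926* samples, against 308, 277 and 793 in WT samples (log2 fold change −5.46, SE 1.17, adjusted p = 0.00515). Both were undetected in 2 of the 3 *Raf926* samples. *Jon65Ai* was at or under the floor of 3 expected counts in every *Raf926* sample, replicate 2 included, with 2.33, 1.05 and 3.15 normalized counts, against 83.2, 35.1 and 143 in WT samples. Set against the floor of the shallowest *Raf926* library, it was at least 25.0-fold lower in *Raf926*. *Jon65Aii* was at 0 in every *Raf926* sample, against 5.80, 7.79 and 21.7 in WT samples, which makes it at least 3.37-fold lower in *Raf926*, but its mean was too low for the test.

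The remaining Jonah genes were less abundant. *Jon44E* on 2R had 2.33, 28.3 and 0 counts in *Raf926* samples, against 119, 52.6 and 187 in WT samples (log2 fold change −3.52, SE 1.07, adjusted p = 0.0232). *Jon74E* on 3L had 3.49, 17.8 and 5.26 counts in *Raf926* samples, against 61.9, 77.9 and 124 in WT samples (log2 fold change −3.28, SE 0.61, adjusted p = 0.00264). Neither overlapped between the genotypes. *Jon66Ci* was the only tested Jonah gene that was not called, with 15.1, 9.44 and 27.3 counts in *Raf926* samples, against 7.74, 6.82 and 68.3 in WT samples (log2 fold change −0.69, SE 0.91, adjusted p = 0.536). Its *Raf926* values lay within the WT range, and WT replicate 3 alone set the sign, since without it the log2 fold change was 1.25. *Jon66Cii*, which lies next to it, had 0, 4.2 and 0 counts in *Raf926* samples, against 2.90, 0 and 11.7 in WT samples, and was not tested.

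Trypsins cut proteins after lysine and arginine. The 11 trypsin genes lie in a row on 2R between 11336840 and 11357537 of BDGP6.54, and every one of them was tested and called lower in *Raf926* embryos, though the calls of *gammaTry* and *iotaTry* did not hold in every fit. Over all genes, 26.9% were called lower. The change of the trypsins ranged from −7.80 for *betaTry* to −1.10 for *iotaTry* on the log2 scale. *betaTry* had 0, 4.2 and 0 counts in *Raf926* samples, against 278, 178 and 592 in WT samples (SE 0.91, adjusted p = 0.000347). It was the trypsin with the least left in *Raf926* replicate 2 relative to WT, and its *Raf926* mean was 0.401% of the WT mean. *alphaTry* had 1.16, 121 and 0 counts in *Raf926* samples, against 489.5, 413 and 1047 in WT samples (log2 fold change −3.98, SE 1.32, adjusted p = 0.0319). *deltaTry* had 19.8, 56.6 and 4.2 counts in *Raf926* samples, against 349, 302 and 1356 in WT samples (log2 fold change −4.63, SE 0.92, adjusted p = 0.0037). *gammaTry* had 0, 47.2 and 4.2 counts in *Raf926* samples, against 165, 60.4 and 163 in WT samples (log2 fold change −2.89, SE 1.09, adjusted p = 0.0506). The gap between the genotypes was narrowest for *gammaTry* among these 4 genes, where the highest *Raf926* sample came near the lowest WT sample. The call of *gammaTry* was lost without *Raf926* replicate 3 (adjusted p = 0.117), without WT replicate 1 (adjusted p = 0.137) and at a threshold of 0.05 for the adjusted p.

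The other trypsins of the row behaved alike, apart from the last. *zetaTry* had 0, 50.3 and 0 counts in *Raf926* samples, against 426, 327 and 663 in WT samples (log2 fold change −4.78). *lambdaTry* had 14.0, 30.4 and 8.41 counts in *Raf926* samples, against 218, 206 and 366 in WT samples (log2 fold change −3.89, SE 0.50, adjusted p = 0.00052). It was detected in every *Raf926* sample, unlike *zetaTry*. *epsilonTry* had 0, 29.4 and 1.05 counts in *Raf926* samples, against 184, 116 and 403 in WT samples (log2 fold change −4.49). *kappaTry* had 2.33, 13.6 and 0 counts in *Raf926* samples, against 108, 95.4 and 152 in WT samples (log2 fold change −4.43). Both were above the floor of 3 expected counts in *Raf926* replicate 2 alone. *etaTry* had 0, 13.6 and 0 counts in *Raf926* samples, against 44.5, 53.6 and 95 in WT samples (log2 fold change −3.76). *thetaTry* had 0, 5.24 and 0 counts in *Raf926* samples, against 39.7, 43.8 and 81.7 in WT samples (log2 fold change −4.85). Like *zetaTry*, these genes were at 0 in *Raf926* replicates 1 and 3. *iotaTry*, at the far end of the row, had 25.6, 12.6 and 17.9 counts in *Raf926* samples, against 33.9, 34.1 and 51.7 in WT samples (log2 fold change −1.10, SE 0.40, adjusted p = 0.0443). Its *Raf926* replicate 2 was the lowest of the 3, and its genotypes were separated by a small margin. The call of *iotaTry* was lost without *Raf926* replicate 2 (adjusted p = 0.148), without *Raf926* replicate 3 (adjusted p = 0.11), without WT replicate 3 (adjusted p = 0.125) and in the DESeq2 Wald test (adjusted p = 0.105).

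Maltases split in direction, with 3 lower and 5 higher of the 9 tested (median log2 fold change 1.00, range −4.11 to 3.98). Over all genes tested, 26.9% were called lower and 22.7% higher. The share of lower maltases was thus near that of all genes, and the share of higher maltases was above it. *Mal-A1* to *Mal-A8* lie in this order on 2R between 8449664 and 8473961, and *Mal-B1* and *Mal-B2* lie 788 bp apart on 2L. *Mal-A1*, the most abundant of the 46 genes in *Raf926* embryos at 86.2 ± 21.1 TPM and at 12.8 ± 6.93 TPM in WT embryos (SD, n = 3 each), had 6551, 4531 and 4327 normalized counts in *Raf926* samples, against 592, 330.1 and 940.1 in WT samples (log2 fold change 3.05, SE 0.37, adjusted p = 0.000409). The *Raf926* mean was 827% of the WT mean, and every *Raf926* sample was well above every WT sample. *Mal-A3*, 2 genes along, went the opposite way, with 84.9, 137 and 43.1 counts in *Raf926* samples, against 1419, 1024 and 2159 in WT samples (log2 fold change −4.11, SE 0.46, adjusted p = 0.000291). *Mal-A2*, 126 bp from *Mal-A3*, had 74.5, 62.9 and 36.8 counts in *Raf926* samples, against 302, 220.1 and 470.1 in WT samples (log2 fold change −2.51, SE 0.38, adjusted p = 0.00112). *Mal-A4* had 222, 165 and 147 counts in *Raf926* samples, against 356, 339 and 871 in WT samples (log2 fold change −1.55, SE 0.40, adjusted p = 0.0113). The 3 genes in the lower group were thus neighbours, and none of them overlapped between the genotypes.

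The genes beyond *Mal-A4* did not fall. *Mal-A5* had 2572, 2820.3 and 3159 counts in *Raf926* samples, against 997, 1008 and 585 in WT samples (log2 fold change 1.72, SE 0.21, adjusted p = 0.000453). *Mal-A6*, 65 bp further on, had 249, 167 and 249 counts in *Raf926* samples, against 170.3, 106 and 273 in WT samples (log2 fold change 0.27, SE 0.36, adjusted p = 0.541). *Mal-A5* was the steadier of the pair within each genotype, while *Mal-A6* overlapped between genotypes and was not called. *Mal-A7* had 11.6, 5.24 and 5.26 counts in *Raf926* samples, against 0, 0.97 and 1.67 in WT samples, and was too low for the test. Every WT sample was under the floor of 3 expected counts, so the *Raf926* mean was at least 2.53-fold higher. *Mal-A8* had 348, 258 and 284 counts in *Raf926* samples, against 18.4, 15.6 and 36.7 in WT samples (log2 fold change 3.64, SE 0.38, adjusted p = 0.000211). The cluster therefore read, in order along the arm, as 1 gene higher, 3 lower, 1 higher, 1 not called, 1 not tested and 1 higher in *Raf926*.

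On 2L, *Mal-B1* had 839, 496 and 415 counts in *Raf926* samples, against 19.3, 23.4 and 66.7 in WT samples (log2 fold change 3.98, SE 0.53, adjusted p = 0.000602). *Mal-B2* had 621, 630.4 and 691 counts in *Raf926* samples, against 333, 412 and 224 in WT samples (log2 fold change 1.00, SE 0.24, adjusted p = 0.00765). *Raf926* samples were above WT samples in both genes, and *Mal-B2* was the called maltase with the smallest change. Both genes lie inside *Pde1c*, a phosphodiesterase gene on the opposite strand, which had 465, 501 and 423 expected counts in *Raf926* samples, against 491, 340 and 832 in WT samples. No source used here describes counting by strand, and reads of these genes and of *Pde1c* cannot be told apart where their exons overlap.

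**Figure D3:**
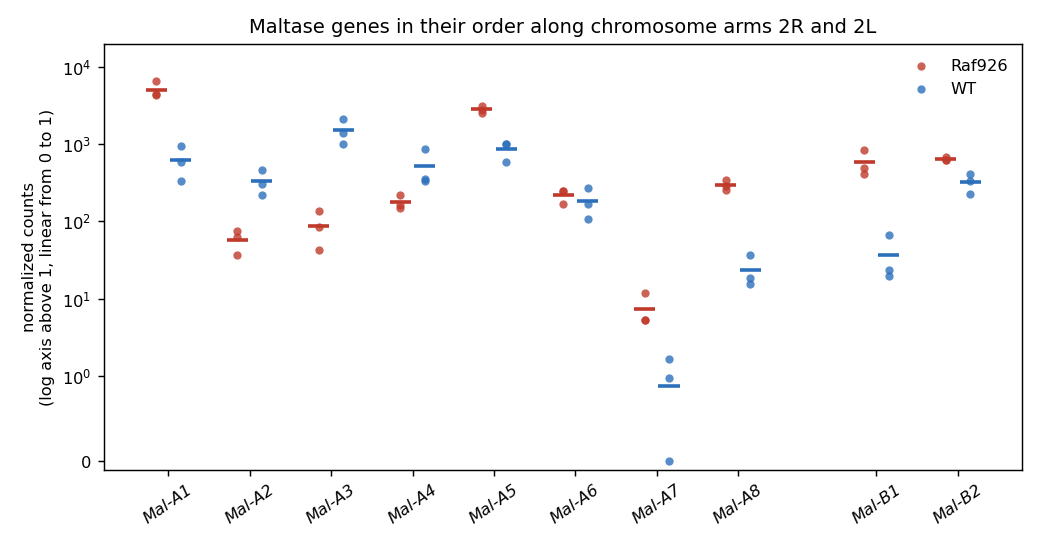
Normalized counts of the 10 maltase genes (vertical axis, logarithmic above 1 and linear from 0 to 1), in their order along 2R (*Mal-A*) and 2L (*Mal-B*), with 1 point per sample, *Raf926* in red left of WT in blue, and a line at the mean of each genotype. *Mal-A2*, *Mal-A3* and *Mal-A4* have all red points below the blue ones, *Mal-A1*, *Mal-A5*, *Mal-A7*, *Mal-A8* and both *Mal-B* genes have them above, and the points of *Mal-A6* overlap.

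The amylase genes *Amy-p* and *Amy-d* lie 4460 bp apart on 2R. *Amy-p* had 150.1, 593 and 86.2 counts in *Raf926* samples, against 1043, 807 and 1716 in WT samples (log2 fold change −2.10, SE 0.67, adjusted p = 0.0275). Its *Raf926* replicate 2 lay between the other *Raf926* samples and WT. *Amy-d* had 83.8, 293 and 55.7 counts in *Raf926* samples, against 262, 199 and 448 in WT samples (log2 fold change −1.07, SE 0.61, adjusted p = 0.166). Here *Raf926* replicate 2 exceeded 2 of the WT samples, and the gene was not called. Without that replicate *Amy-d* was called lower, at a log2 fold change of −2.09 (adjusted p = 0.00688).

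Of the lysozymes, 3 of the 4 tested fell and *LysX* rose, beside 26.9% lower and 22.7% higher over all genes. *LysX*, known in flies mainly from the gut of the pupa, had 372, 409 and 674 normalized counts in *Raf926* samples, against 3.87, 0 and 8.33 in WT samples (log2 fold change 6.80, SE 0.69, adjusted p = 0.000192). This was the largest increase of the 40 genes. It had at most 10 expected counts in any WT sample, and at 41.6 ± 13.3 TPM in *Raf926* and 0.44 ± 0.47 TPM in WT (SD, n = 3 each) it stood beside *Mal-A5* among the most abundant enzyme genes of *Raf926* embryos. *LysX* lies 12068 bp from the next lysozyme gene and does not overlap *mwh*, a gene for a regulator of actin in epidermal hairs.

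The other lysozyme genes, which cluster inside *mwh* on 3L, had few counts. *LysD* had 18.6, 35.7 and 19.97 counts in *Raf926* samples, against 111, 52.6 and 159 in WT samples (log2 fold change −2.11, SE 0.49, adjusted p = 0.00701). *LysE* had 6.98, 16.8 and 18.9 counts in *Raf926* samples, against 67.7, 33.1 and 91.7 in WT samples (log2 fold change −2.16, SE 0.52, adjusted p = 0.00879). *LysS* had 8.14, 13.6 and 1.05 counts in *Raf926* samples, against 48.4, 24.3 and 117 in WT samples (log2 fold change −3.04, SE 0.82, adjusted p = 0.0143). No *Raf926* sample reached the WT range in these 3 genes. *LysB*, *LysC* and *LysP* were too low to test. *LysB* had 2.33, 7.34 and 3.15 counts in *Raf926* samples, against 2.90, 1.95 and 30.0 in WT samples. The *LysC* pseudogene had 0, 6.29 and 0 counts in *Raf926* samples, against 12.6, 4.87 and 20.0 in WT samples. *LysP* had 0, 0 and 3.15 counts in *Raf926* samples, against 4.84, 9.74 and 1.67 in WT samples. The genotypes overlapped in all 3. *mwh* itself ran the other way, with 3365, 2261 and 2383 expected counts in *Raf926* samples, against 819, 608 and 1335 in WT samples, and its part in the values of the genes inside it was not tested.

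Some of these genes shared reads, which RSEM had to divide. In all 6 samples the fractional expected counts added up to whole numbers, within 0.02, over *Amy-p* and *Amy-d*, over *Jon99Fi*, *Jon99Fii*, *Jon99Cii* and *Jon99Ciii*, over *LysB*, *LysD* and *LysE*, and over *alphaTry*, *betaTry*, *gammaTry* and *deltaTry* with *CG30025* and *CG30031*, genes outside the rule. The values of single genes within such a group are therefore less certain than their sum. Summed, the amylases had 201, 844 and 135 expected counts in *Raf926* samples, against 1349, 1033 and 2596 in WT samples, and fell by 1.83 on the log2 scale (adjusted p = 0.0396). The Jonah group fell by 5.97 (adjusted p = 0.00276), the trypsin group by 4.35 (adjusted p = 0.00747) and the lysozyme group by 2.08 (adjusted p = 0.00717). Each sum thus fell, including the amylases, of which *Amy-d* alone was not called.

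*Raf926* replicate 2 stood apart from the other *Raf926* samples. It was the highest *Raf926* sample in 26 of the 31 lower genes, the exceptions being *Jon65Ai*, *LysE*, *Mal-A2*, *Mal-A4* and *iotaTry*, and in 0 of the 6 higher genes. As a percentage of the WT mean, the 31 genes had medians of 0.706%, 11.5% and 0.569% in *Raf926* replicates 1, 2 and 3. The 8 muscle genes on a list used as a marker of another tissue, which includes the myosin heavy chain gene *Mhc*, had medians of 0.884%, 11.3% and 0.533%, so that the same replicate retained more of both kinds of transcript. Whether the composition of that sample played a part in the enzyme values was not tested. In 15 of the 31 genes replicates 1 and 3 were both at or under 3 expected counts, and in 8 both were at 0. Without replicate 2, these 15 genes were at least 15.8-fold (*thetaTry*) to at least 431-fold (*Jon99Cii*) lower in *Raf926*. Leaving it out moved the fold change of 24 of the 37 called genes by over 1.5 times and the median of the tested genes to −5.01, and kept 36 of the calls.

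**Figure D4:**
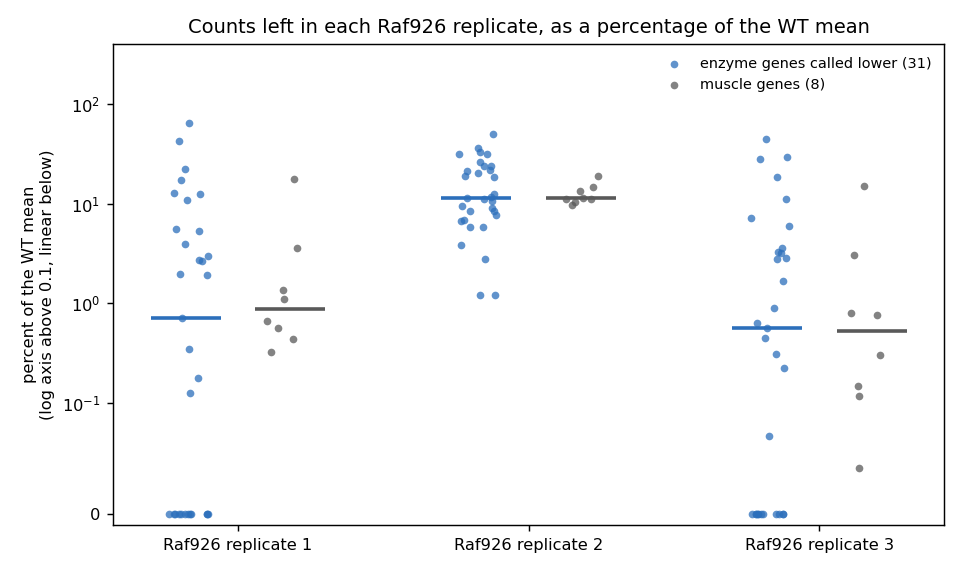
Normalized counts in each *Raf926* replicate as a percentage of the WT mean (vertical axis, logarithmic above 0.1 and linear below), for the 31 enzyme genes called lower (blue) and 8 muscle genes (grey), with 1 point per gene and a line at the median. Replicate 2 has medians of 11.5% and 11.3%, while replicates 1 and 3 have medians under 1% and hold all of the points at 0.

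Among WT samples, replicate 3 was the highest in 30 of the 31 lower genes, at a median of 2.18 times the mean of replicates 1 and 2 (range 1.44 to 4.17). It was also the highest in 4 of the 6 higher genes, at a median of 2.10 times that mean (range 0.58 to 4.31). The excess was therefore shared by 4 of the higher genes. The others, *Mal-A5* and *Mal-B2*, were lowest in WT replicate 3. The maternal transcript *osk*, singled out after its values were seen, had 3078, 4020.2 and 4544 counts in *Raf926* samples, against 1216, 1549 and 220.0 in WT samples, and so was lowest in WT replicate 3. The part of the mix of stages in these values was not tested. Without WT replicate 3, the median log2 fold change was −3.28, the fold change of 13 of the 37 called genes moved by over 1.5 times, and *Jon25Bi* (adjusted p = 0.103) and *iotaTry* were no longer called.

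The lower and the higher genes also differed in gene structure. Of the 31 lower genes 24 have a single exon in BDGP6.54, while 1 of the 6 higher genes (*LysX*) does. This difference follows the families, since 11 of the 16 Jonah genes and each of the 11 trypsins have a single exon and none of the maltases does. Within the maltases, which have between 3 and 7 exons, the lower genes had 3, 4 and 5.

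The other genes of the gut gave a setting for these values. Of 38 further gut enzymes and gut proteins, 37 were matched in the tables and 26 tested, and 24 of them fell and 2 rose in *Raf926* embryos (median log2 fold change −3.46, beside −0.04 over all genes, of which 26.9% were lower). Of the 24 genes, 13 had a *Raf926* mean under 10 expected counts and passed the minimum through WT alone. Their most abundant member, *Peritrophin-A*, which encodes a chitin-binding protein, rose, with 1675, 1499 and 986 counts in *Raf926* samples, against 415, 316 and 574 in WT samples (log2 fold change 1.67, adjusted p = 0.00153). *LManVI*, an alpha-mannosidase gene, had 4.65, 129 and 0 counts in *Raf926* samples, against 1007, 802 and 1861 in WT samples (log2 fold change −4.76, adjusted p = 0.011). *CG11911*, which encodes a predicted serine protease, had 108, 129 and 56.8 counts in *Raf926* samples, against 502, 443 and 1054 in WT samples (log2 fold change −2.77, adjusted p = 0.00127). The list thus held genes of both directions, as the enzyme families did, but mostly genes that fell.

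Regulators of gut formation changed less uniformly, with 7 of 10 lower and 1 higher (median log2 fold change −1.03). Over all genes, 26.9% were lower and 22.7% higher. *GATAe*, a GATA factor that drives endoderm differentiation, had 108, 97.5 and 136 counts in *Raf926* samples, against 1360.2, 1423 and 2138 in WT samples (log2 fold change −3.85, SE 0.24, adjusted p = 3.5e-05). It was low in all 3 *Raf926* samples alike, replicate 2 included. *hkb*, which specifies the ends of the embryo including endoderm, had 16.3, 17.8 and 9.46 counts in *Raf926* samples, against 925.8, 1116 and 753 in WT samples (log2 fold change −5.99). *byn*, needed for the hindgut, had 10.5, 81.8 and 10.5 counts in *Raf926* samples, against 661, 645 and 513 in WT samples (log2 fold change −4.13). These 3 regulators were singled out after their values were seen. The most abundant of the list changed little or moderately. *bowl*, a gene for a zinc finger factor of the hindgut and foregut, had 4374, 3063 and 3389 counts in *Raf926* samples, against 3463, 4033 and 4219.6 in WT samples (log2 fold change −0.11, adjusted p = 0.534). *srp*, the GATA factor upstream of *GATAe*, had 2953, 2654 and 1927 counts in *Raf926* samples, against 4022, 5680.4 and 5127 in WT samples (log2 fold change −0.98, adjusted p = 0.00306). *fkh*, a forkhead factor of the whole gut and the salivary gland, had 3025, 2054 and 1936 counts in *Raf926* samples, against 4262, 5302 and 5192 in WT samples (log2 fold change −1.07, adjusted p = 0.00188).

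Markers of other tissues did not all fall, and their counts stand beside 26.9% lower and 22.7% higher over all genes. The 8 muscle genes were all lower (median log2 fold change −4.38) and 3 of 5 salivary gland genes were lower, while the 4 epidermal and tracheal genes were all higher (median 2.23), as were 5 of 6 maternal genes and *Fbp1*, the 1 fat body gene tested. No eggshell gene reached the minimum for the test. Of 13 accessory gland genes 1 did, and it was not called. The part of these other tissues in the values of the enzyme genes was not tested.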

How the data were processed

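RNA-seq of 3 *Raf926* and 3 WT embryo samples was analysed. The authors aligned the reads with STAR 2.7.1a to the fly genome (dm6, annotation of BDGP6.22) and deposited RSEM 1.3.1 expected counts, which are not normalized, and TPM per gene, which are scaled to gene length and library. Deposited FPKM values were not used. The files give no coordinates, so gene positions are those of BDGP6.54, which matched 17587 of 17714 genes.

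As in the study, 390 rRNA, snoRNA and snRNA genes and genes with a mean under 10 counts were removed, which left 11568 genes. Expected counts were rounded and fitted over all these genes with edgeR 4.0.16 (R 4.3.3), using TMM factors, the quasi-likelihood test and Benjamini-Hochberg adjustment. Calls needed an adjusted p below 0.1 and more than a 1.5-fold difference. The SE is the size of the log2 fold change divided by the square root of F. The floor was 3 expected counts, or between 0.0787 and 0.0902 CPM, and covers counting error only. Lower bounds use the floor of the shallowest library. The test was checked on simulated data with known changes. Plots were drawn with matplotlib 3.10.9.

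The enzyme families, the other gene lists and the tests were chosen with earlier results of these data known. All 46 family genes are given. Of the other lists, counts and at most the 3 genes with the highest mean count are named, and genes chosen otherwise are marked. Alternatives were DESeq2 size factors, library size alone, upper-quartile factors, the DESeq2 1.42.0 Wald test, other filters and thresholds, the replicate block, each sample left out in turn and, added after the data were seen, sums over genes that share reads.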

Additional observations from a re-analysis of the deposited data

How the results depend on the processing

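The 37 calls of enzyme genes were kept under DESeq2 size factors, library size alone, upper-quartile factors, edgeR's filterByExpr and no fold change threshold, with the signs unchanged. The DESeq2 Wald test kept 35 and an adjusted p under 0.05 kept 36. Without the filter on low counts 40 genes were called, with *Jon65Aii*, *LysC* and *Mal-A7* added. Between 35 and 37 were called when 1 sample was left out, with *Jon25Bi*, *gammaTry* and *iotaTry* the only calls lost in any fit. *Jon25Bi* was lost in the DESeq2 Wald test (adjusted p = 0.118) and without WT replicate 1 (adjusted p = 0.107), and *gammaTry* without *Raf926* replicate 3 (adjusted p = 0.117) and without WT replicate 1 (adjusted p = 0.137). The log2 fold change changed sign in 2 genes that were not called, *Jon66Ci* (1.25 without WT replicate 3, range −1.21 to 1.25 over the samples left out) and *Mal-A6* (−0.0549 without WT replicate 2, range −0.0549 to 0.69). The number of enzyme genes above background in *Raf926* was 22 as defined, between 22 and 26 with each sample left out, 15 with at least 10 counts, 11 with at least 1 TPM and 9 above the accessory gland genes.

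Over all genes, 2631 were called higher and 3116 lower. By library size alone the split was 1967 and 3833, and the median of all genes moved by −0.20 on the log2 scale. Same-numbered samples of the genotypes did not deviate together (correlations of −0.05, −0.20 and −0.19 for replicates 1, 2 and 3). No correlations of differently numbered samples were set beside these, so whether a number marked a shared batch cannot be told from them. With the replicate block all 37 calls of enzyme genes were kept, the median log2 fold change of the tested genes was −4.17, and 5493 genes were called over all. Summing genes that share reads left 30 of 32 rows called. Summing by protein identity was planned and not run. A count of 0 limits a gene to 3 expected counts per library, so fitted folds against such samples are not bounds.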
